A study of Macaca mulatta with 13 samples.

Results

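The genes described here encode the nuclear part of the mitochondrial respiratory chain and ATP synthase. They were chosen by symbol alone, as every feature whose symbol starts with NDUFA, NDUFB, NDUFC, NDUFS, NDUFV, UQCR, COX4I, COX5, COX6, COX7, COX8, ATP5F, ATP5M or ATP5P, together with SDHA to SDHD. That gave 75 of the 34628 features of the matrix. Of these, 29 are subunits of complex I, 7 are NDUFAF assembly factors of complex I, 4 form complex II, 6 belong to complex III, 17 to complex IV and 12 to complex V, the ATP synthase. They carry 74 symbols, because ATP5MC1 names 2 features. The call to a complex follows the symbol, except that NDUFA4 and NDUFA4L2 were placed with complex IV, where NDUFA4 is now known to sit.

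The respiratory chain passes electrons from NADH (complex I) and from succinate (complex II) through complex III to complex IV, which reduces oxygen, and the proton gradient built on the way drives ATP synthesis by complex V. Most subunits are made from nuclear genes and imported, and a small catalytic core is encoded by mitochondrial DNA. In lymphocytes this machinery is known for its rise on activation, and plasma cells are known for the load that antibody secretion puts on their metabolism.

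The cells are leukocytes of rhesus macaque colon, from a model of graft-versus-host disease after allogeneic transplantation of blood-forming cells. Viable CD45-positive cells were sorted from thawed tissue of 4 transplanted and 4 untransplanted healthy control samples, and cells reached by an intravascular CD45 antibody were gated out. The 13 labels name 4 host, 2 donor, 3 combined host and donor and 4 healthy control samples. In part of the transplanted samples, host and donor cells were parted by the MAMU-A001 antigen. No label or file ties the cells of the single matrix to these labels, so host, donor, GVHD and control cells were not compared. The labels used here give no transplant regimen, sex or age.

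What can be told apart are the 13 libraries, numbered here by the suffix of the cell barcodes, and the cell class, read from marker genes. Libraries are treated as unassigned samples: each value below is a library's own, or the lowest, median and highest over libraries, and no p-value is given. T cells were barcodes with at least 3 UMIs (unique molecular identifiers, the count of captured RNA molecules) of CD3D, CD3E and CD3G together. B cells had at least 2 of MS4A1 and CD79A, and plasma cells had at least 1% of their UMIs from JCHAIN. Cells passing more than 1 of these gates (2549 of 20567, 12.4%) were left out, which gave 11234 T, 3780 B and 1241 plasma cells. A class entered a comparison in a library that held at least 30 of its cells. Levels are UMIs per 1000000 UMIs of the class in that library (CPM). The kits count the 3′ end of each molecule, so levels of different genes are compared without a correction for length.

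The matrix held 57086 barcodes and 146797955 UMIs, of which the authors kept 20606 barcodes. Libraries 4 and 6 shared 5323 barcodes, against at most 55 in any other pair, and library 4 (39 kept cells, all of them also in library 6) was left out. By shared barcodes the rest fell into 2 sets, libraries 1 to 7 and libraries 8 to 13. The kits of the 2 versions named in the labels are not tied to libraries, so kit and set cannot be told apart here. Without the genes that define the gates, the 7 other T markers summed to 1209 to 4597 CPM in T cells and at most 307 in B and 45.0 in plasma cells. The 8 other B markers summed to 2066 to 3248 CPM in B cells and at most 160 in T and 131 in plasma cells. The 8 other plasma markers found summed to 5369 to 15410 CPM in plasma cells, and at most 961 in T and 1842 in B cells. The 8 myeloid markers summed to 3953, 1887 and 1779 CPM in the T cells of libraries 1, 5 and 12, and to at most 9.04 in the other 8 libraries. The 6 epithelial markers found reached 1197 CPM in library 6 and 275 in library 1, and the 4 stress and handling genes found ranged from 2095 to 13723 CPM in T cells.

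Libraries 3, 5 and 6 stand apart in a few members, in every cell class that could be looked at. ATP5F1D, the delta subunit of the ATP synthase catalytic head, was at 15.6, 14 and 0 CPM in the T cells of libraries 3, 5 and 6. In the other 8 libraries its T-cell level was 322 to 590 CPM. The gap was as wide in B cells of library 3, with 11.3 CPM of ATP5F1D against 249 to 365 in 5 other libraries, and in plasma cells of library 5, with 10.9 against 144 to 342.

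COX5A, a subunit that packs against the catalytic core of complex IV, followed the same libraries. It was at 14, 25.6 and 39.3 CPM in T cells of libraries 3, 5 and 6, and at 157 to 471 in the other 8. UQCRFS1, the Rieske iron-sulfur protein of complex III, was at 17.3, 23.1 and 19.6 CPM in those libraries and at 101 to 218 elsewhere. Other subunits of complex IV did not share this pattern: COX6C was at 818, 964 and 913 CPM in libraries 3, 5 and 6, next to 565 to 956 in the other 8, and COX7A2 at 539, 879 and 785, next to 316 to 622. Over all barcodes, libraries 4 and 7 of the same barcode set were also low, with ATP5F1D at 5.43 and 0.312 CPM and UQCRFS1 at 40.0 and 42.4 CPM. COX5A was less low there, at 80.2 and 106 CPM, next to 45.3 and 16.4 CPM in libraries 3 and 5. Libraries 1 and 2 of that set were not low. Only 4.75% and 3.41% of the UMIs of libraries 4 and 7 came from kept cells, and library 4 shares most of its barcodes with library 6.

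Library 6 lost more members. Its 34 T cells held 101886 UMIs and not 1 of ATP5F1D, NDUFA11, NDUFB7, NDUFS6, NDUFS7, NDUFS8, NDUFV1 or UQCRC1. At the median level of the 11 libraries, 32.9 UMIs of NDUFA11 would have been counted. COX5B, at 431 CPM in the median library, was at 19.6 CPM in library 6. In all, 10 of the 61 members with a median of at least 20 CPM were below 10% of that median in library 6 (16.4%), next to 16.1% of all 4151 such genes. For the same measure library 3 had 2 members (3.28%, all genes 3.90%), library 5 had 1 (1.64%, all genes 5.56%) and the other 8 libraries had 0. The share of members at this low level was thus close to, or below, that of all genes in each of the 3 libraries. Over all barcodes of a library, kept or not, NDUFA11 had 1 UMI in library 4, 2 in library 6 and 0 in library 7, and 2098 to 6440 in the other 10. The genes of these paragraphs were singled out after their values were seen, and what set these libraries apart was not tested. Summed ratios over all UMIs, some counts and the shares of complexes I and V that use libraries 3, 5 or 6 are given below with and without them. Counts set against the member total or under other scalings are given only with them.

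**Figure D1:**
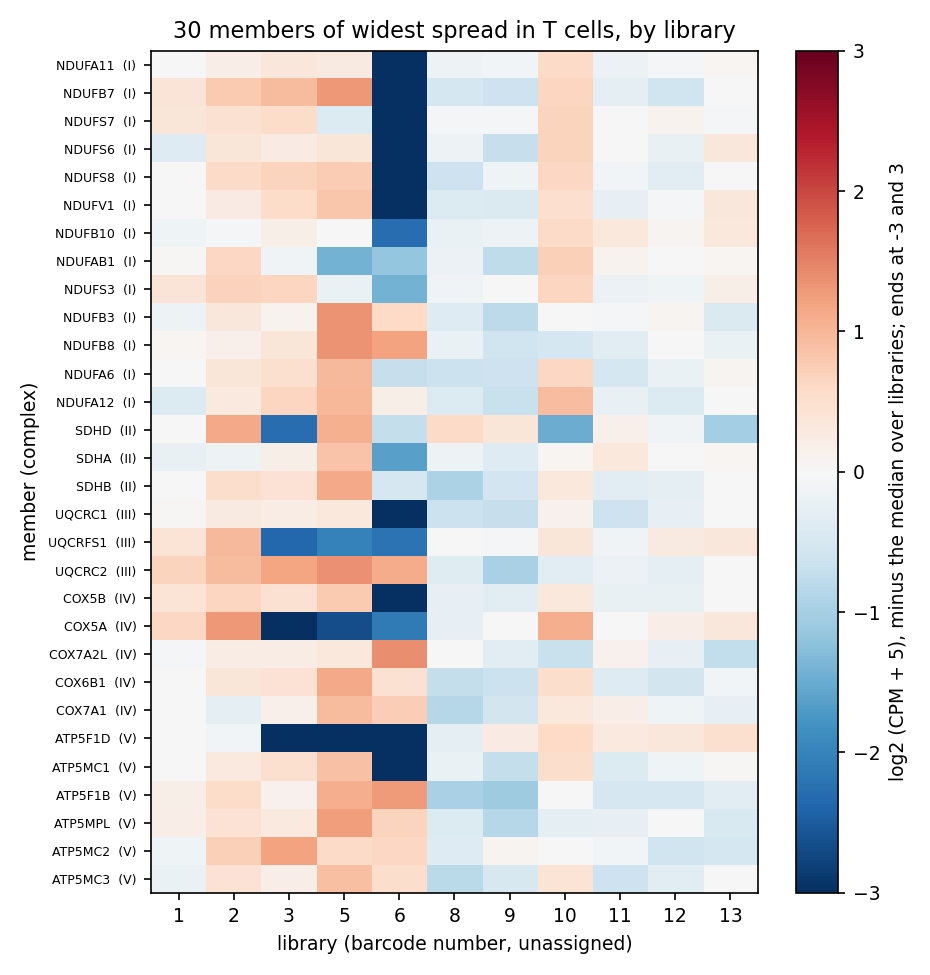
Members in T cells by library. Each row is 1 of the 30 members with the widest range over libraries, of 63 with a mean of at least 20 CPM, ordered by complex; each column is 1 of 11 libraries; colour is log2 (CPM + 5) minus the row's median, and values beyond -3 or 3 take the end colours. The lowest values are those of ATP5F1D, COX5A and UQCRFS1 in libraries 3, 5 and 6, and a longer run of genes in library 6 alone.

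Most members were well measured. Pooled over the 3 classes, 62 of 75 were at 20 CPM or above, 46 at 100 CPM or above and 5 below 1 CPM, with a median of 135 CPM. The 5 most abundant members held 31.5% of all member UMIs. They were ATP5F1E (1868 CPM pooled), the epsilon subunit of the ATP synthase head; COX4I1 (1157 CPM), the common form of subunit 4 of complex IV; ATP5MG (936 CPM), a membrane subunit of complex V; COX7C (843 CPM) and COX6C (673 CPM), small subunits of complex IV. In complex I the highest were NDUFB2 (380 CPM), NDUFA1 (353 CPM) and NDUFA11 (314 CPM), all accessory subunits without a redox centre.

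Complex III was led by UQCR (443 CPM) and UQCRQ (309 CPM), small subunits, with UQCRB at 152 CPM. The file's UQCR feature carries the symbol MBD3 in the table of gene names, and NDUFAB1 carries PALB2, so both may count another gene. Complex II is the one complex whose subunits are all nuclear, and its members were low. SDHB, the iron-sulfur subunit, was at 74.4 CPM and SDHA, the flavoprotein that oxidises succinate, at 49.9 CPM. SDHD, a membrane anchor, was at 22.6 CPM, and the other anchor SDHC at 0.531 CPM, far below its partners. ATP5F1B, the catalytic beta subunit of complex V, was at 22.8 CPM next to 349 CPM of its alpha partner ATP5F1A. Partners of 1 complex thus differed by more than 10-fold in these 3′ counts. Whether each feature captures all RNA of its gene was not tested, so these are levels of features.

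Several subunits exist as alternative forms, and these cells used the common one. COX4I2, COX6A2, COX6B2 and NDUFA4L2, forms known from muscle, testis or low oxygen, were each below 1 CPM pooled, with 0 UMIs of NDUFA4L2 in 40143012 UMIs of T cells, which allows up to 0.0747 CPM by a limit of 3 counts. Their partners COX4I1, COX6B1 (305 CPM) and NDUFA4 (590 CPM) were abundant, and COX6A1, which only the table of gene names identifies, had a median of 212 CPM in the T cells compared with B cells. COX7A1, described mainly in heart and muscle, was the exception. It was found in every library, at 35.2, 68.4 and 136 CPM (lowest, median and highest) in T cells, 34.7, 49.7 and 62.3 in B cells and 25.7, 38.9 and 65.2 in plasma cells. Without libraries 3, 5 and 6 its highest T-cell level was 86.4 CPM. COX7A2, the widely expressed form, was at 316, 480 and 879 CPM in T cells.

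COX8C, the form of subunit 8 known from testis, was almost limited to T cells. It had 127 UMIs in T cells, 3.16 CPM (95% exact Poisson interval 2.64 to 3.76, which covers counting error only). B cells had 4 UMIs, 0.248 CPM (0.0676 to 0.635), and plasma cells 3, 0.224 CPM (0.0461 to 0.653). It was above 0 in the T cells of 9 of 11 libraries, and all of these levels are far below the 388 CPM of COX8A in T cells.

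The members together took 1.92% of T-cell UMIs, 2.06% of B-cell UMIs and 0.814% of plasma-cell UMIs, pooled over libraries. By library the share was 1.44%, 1.90% and 2.79% in T cells (lowest, median and highest of 11), 1.43%, 1.71% and 2.66% in B cells (of 6), and 0.618%, 0.785% and 1.43% in plasma cells (of 7). Plasma and T cells did not overlap across libraries, whereas B and T cells did. Counted per cell, the order turned: the median plasma cell held 68 member UMIs, the median B cell 62 and the median T cell 54, with medians of 9506, 3337 and 3102 UMIs of any gene. Within libraries, plasma cells held more member UMIs than T cells in 7 of 7, whereas B cells held more than T cells in 2 of 6, libraries 3 and 9.

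**Figure D2:**
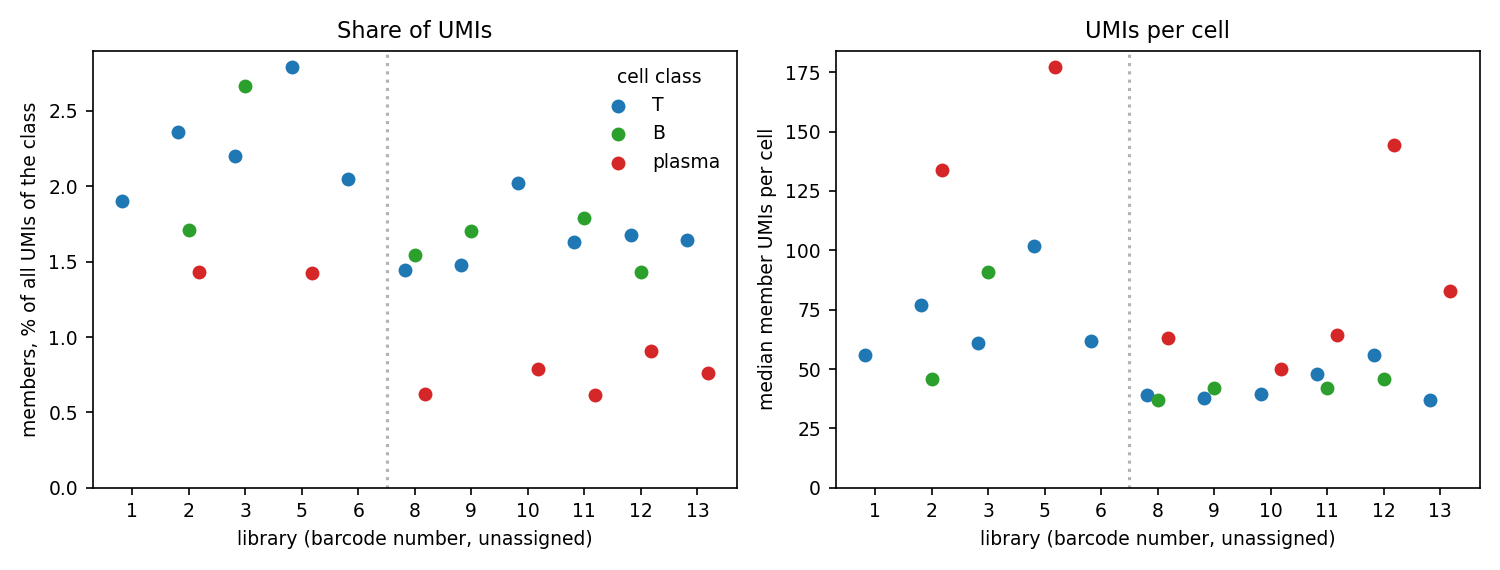
Members summed in T, B and plasma cells of each library. Left, members as a percent of all UMIs of the class; right, median member UMIs per cell; 1 point per library and class with at least 30 cells; the dotted line parts the 2 sets of libraries that share barcodes. Plasma cells are lowest at left in each of the 7 libraries that have them and highest at right in each of these 7.

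Members were lower in plasma than in T cells as a share of all UMIs in 7 of 7 libraries, and this direction depended on which genes were counted in the total. Within a library, the summed level in plasma cells over that in T cells had a median log2 ratio of -1.10 (-1.40 to -0.72), a ratio of 0.465. In plasma cells 7 genes, among them IGHA2, IGKC, JCHAIN and 3 features without a symbol, took 61.4% of all UMIs, against 0.189% in T cells. These 7 were picked for holding much of the plasma RNA, and JCHAIN is also the gene of the plasma gate. Without the immunoglobulin genes that carry a symbol, which leaves the 3 other features in, the ratio was still below 0, at -0.55. With the 7 genes left out of the totals, the median log2 ratio was 0.22 and 6 of 7 libraries were higher in plasma cells. With median-of-ratios scaling, which sets the median gene of each library pair to no change, it was 0.25 with 7 of 7 higher. All measured genes had a median log2 ratio of -1.37, below the members' -0.83. Without library 5 the summed ratio was -1.16.

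Against B cells the values were alike, in 4 libraries that held both classes. The summed log2 ratio was -0.26, -1.31, -1.54 and -0.66 in libraries 2, 8, 11 and 12. Of 61 measured members 31 were lower in all 4 libraries and 0 higher, next to 73.8% and 5.81% of all 3784 genes. Among the largest drops were those of COX7C (log2 -2.21), COX4I1 (-1.71), COX6C (-1.60), NDUFA10 (-1.56), NDUFAF4 (-1.54), COX5A (-1.54), ATP5F1E (-1.46), ATP5MC2 (-1.40) and NDUFB2 (-1.34); with median-of-ratios scaling NDUFB2 turned to 0.036. The summed ratio was 0.34 in the median with the 7 genes left out and 0.39 with median-of-ratios scaling, with 4 of 4 libraries higher in plasma cells under both. With the 7 genes left out 30 members were higher and 3 lower, next to 22.1% and 35.5% of all genes, and with median-of-ratios scaling 34 and 2, next to 27.9% and 26.5%.

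**Figure D3:**
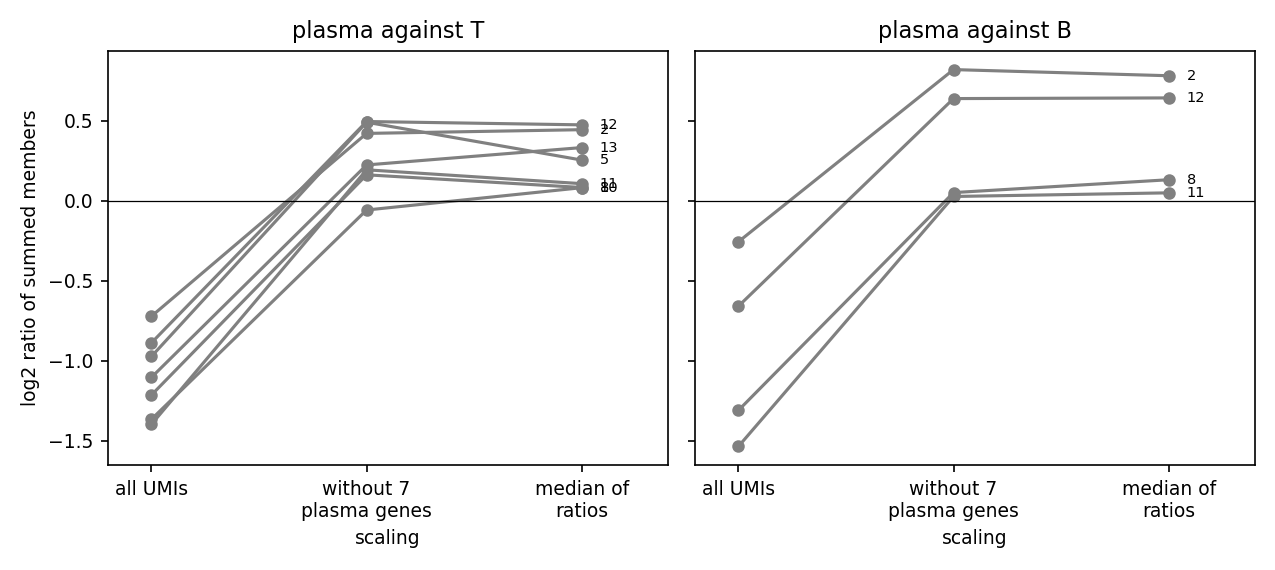
Summed members in plasma cells over T cells (left, 7 libraries) and over B cells (right, 4 libraries), as log2 ratios under 3 scalings: all UMIs, totals without the 7 plasma genes, and the median of ratios. Each line is 1 library, with its number at the right end. All lines start below 0; with the 7 genes left out 1 library stays below 0 against T cells, and with the median of ratios none does.

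Of the 61 members measured in plasma and T cells (mean of at least 20 CPM), 47 were lower in plasma cells in all 7 libraries, next to 77.3% of all 3602 measured genes, and 1 was higher, next to 5.77%. With the 7 genes left out, 31 were higher and 3 lower, next to 20.2% and 31% of all genes. With median-of-ratios scaling 36 were higher and 5 lower, next to 25.2% and 23.6%. The counts by complex were 19 of 28 lower in complex I, 1 of 2 in complex II, 5 of 6 in complex III, 11 of 12 in complex IV and 9 of 11 in complex V.

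ATP5F1E showed the widest drop. It was at 1897, 2269 and 3683 CPM in T cells of the 11 libraries and at 441, 483 and 1040 CPM in plasma cells of 7, with no overlap. Without libraries 3, 5 and 6 its highest T-cell level was 2848 CPM. The median log2 ratio within libraries was -2.0 (-2.32 to -1.79), and it was still below 0 in 7 of 7 libraries with the 7 genes left out (-0.66) and with median-of-ratios scaling (-0.66). COX7C fell from a median of 788 to 193 CPM in the libraries compared (log2 -1.96), and NDUFV2, an iron-sulfur subunit at the NADH end of complex I, from 167 to 41.9 CPM (-1.87). NDUFB9 followed at -1.75, COX4I1 at -1.64, ATP5MC2, a form of the ring that turns in complex V, at -1.62, and COX6C at -1.50. UQCR (-1.47), NDUFB2 (-1.45) and COX8A (-1.31) completed the 10 largest. COX7C, NDUFV2, ATP5MC2 and COX6C were also lower in all 7 libraries under median-of-ratios scaling, while COX8A turned to 0.13.

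NDUFV3, a small subunit of the NADH-oxidising arm of complex I, was the 1 member higher in plasma cells in every library in the main setting. That is 1.64% of the measured members, next to 5.77% of all genes. Its plasma level was 92.1, 102, 80.6, 81.4, 78.5, 119 and 74.4 CPM in libraries 2, 5, 8, 10, 11, 12 and 13. The T-cell level in the same libraries was 58.5, 69.7, 65.9, 54.0, 72.0, 74.2 and 67.6 CPM. Every plasma value lay above every T-cell value of these 7 libraries, at the closest by 74.4 CPM (library 13) against 74.2 CPM (library 12). The log2 ratio was 0.52 (0.12 to 0.65), or 1.71 with the 7 genes left out and 1.75 with median-of-ratios scaling. No member was higher in every library with cells thinned to equal depth, stricter gates, cells of more than 1 gate kept, or plasma cells allowed the B gate. Over the settings described at the end, the NDUFV3 ratio counted as the same in 16, moved in 10 and reversed in 0. SDHA (43.1 against 43.2 CPM) and NDUFS8 (103 against 101 CPM), an iron-sulfur subunit of complex I, had equal medians in both classes, with log2 ratios on both sides of 0.

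The mix of members also differed. Complex I subunits made up 29.4% to 35.8% of the member UMIs of plasma cells (median 33.4%) and 19.9% to 28.6% of those of T cells (24.8%), with no overlap. Complex V made up 25.6% to 28.9% in plasma cells (27.9%) and 30.9% to 36.0% in T cells (33.1%), again with no overlap. Without libraries 3, 5 and 6 neither overlapped: complex I had medians of 33.5% and 24.9% with at most 28.6% in T cells, and complex V 27.3% and 32.8% with at most 28.9% in plasma cells and at least 30.9% in T cells. Complex IV overlapped, with medians of 28.1% and 32.2%. Set against the member total, 22 members were higher and 10 lower in plasma cells in every library, next to 15.4% and 41.8% of all genes, and 15 of the 22 belong to complex I. The highest were NDUFV3 (log2 1.52), SDHA (1.09), NDUFS8 (0.95), NDUFS6 (0.89) and NDUFB11 (0.84). This measure does not depend on how much antibody RNA the cell holds. It does depend on abundant members such as ATP5F1E, COX7C and COX4I1, whose large drops lower the total and so raise the other members against it. The shares of all genes shift with the same total and are no independent background.

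B cells and T cells differed little in the sum. The log2 ratio of B over T was 0.12 in the median and -0.47, 0.28, 0.10, 0.21, 0.14 and -0.23 in libraries 2, 3, 8, 9, 11 and 12. It was higher in 4 of 6 libraries, 0.10 in the median without library 3, and -0.05 with median-of-ratios scaling. The 2 libraries with lower values, 2 and 12, held 65 and 41 B cells, against 566 to 1450 in the others. Of 63 measured members, 5 were higher and 6 lower in all 6 libraries (7.94% and 9.52%), next to 17.6% and 15.4% of all 4597 measured genes, so a smaller share of the members than of all genes went in a single direction. Without library 3 there were 5 and 7, next to 19.5% and 17.3%. The 4 stress and handling genes were lower in B than in T cells in 5 of 6 libraries, and their part was not tested. Where each class had at least 100 cells (4 libraries), 44 of 64 members were higher in B cells, next to 44.1% of all genes.

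Of the 6 lower members, NDUFV2 had the widest gap. In B cells it was at 50.5, 151, 75.6, 95, 89.6 and 68.6 CPM in libraries 2, 3, 8, 9, 11 and 12, and in T cells of the same libraries at 280, 256, 152, 247, 146 and 165. The B-cell value was the lower one in each library, with a median log2 ratio of -1.08 (-2.36 to -0.67). ATP5F1E was at 1350, 1547 and 1842 CPM (lowest, median and highest) in B cells, all below its lowest T-cell value of 1897 CPM, with a log2 ratio of -0.48. UQCRQ (-0.40), ATP5F1D (-0.38), UQCR (-0.35) and ATP5MC2 (-0.22) were lower by less. Library 3 gives ATP5F1D with 11.3 CPM in B and 15.6 in T cells, at the low level described above.

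The 5 higher members were NDUFAF4, SDHA, NDUFS8, NDUFV3 and NDUFA10. NDUFAF4, an assembly factor of complex I, was at 52.9, 64.6 and 83.1 CPM in B cells and at a median of 34.0 CPM in T cells of the same libraries (log2 0.89, 0.44 to 1.37). SDHA was at 75.7, 91.1, 58.1, 72.8, 71.3 and 43.6 CPM in B cells and 36.5, 46.9, 36.4, 30.03, 51.9 and 41.1 CPM in T cells of libraries 2, 3, 8, 9, 11 and 12. That is a log2 ratio of 0.75 (0.08 to 1.15), smallest in library 12. NDUFS8 (0.59), NDUFV3 (0.58) and NDUFA10 (0.50), an accessory subunit, were higher by less. NDUFV2 and NDUFV3, both of the NADH-oxidising arm, thus differed in opposite directions in all 6 libraries.

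COX5A had the largest median of any member, 1.44, but not a single direction (-0.25 to 2.15). It was at 397, 79, 408, 552, 635 and 249 CPM in B cells and at 471, 14, 157, 188, 185 and 216 CPM in T cells of libraries 2, 3, 8, 9, 11 and 12. B cells were above T cells in 5 of 6 libraries, library 3 with its low COX5A among them, and below in library 2.

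**Figure D4:**
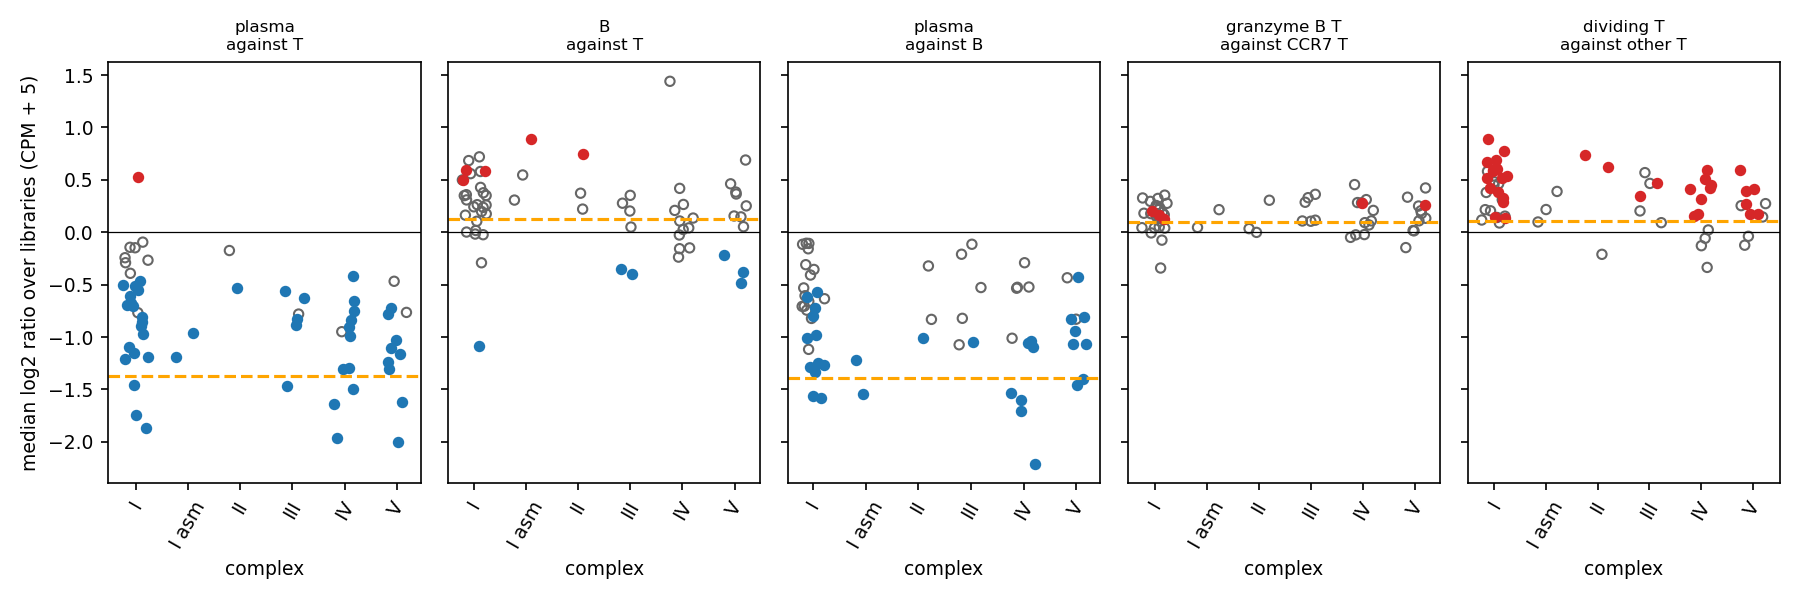
Median log2 ratio over libraries of each measured member, by complex (I asm, assembly factors of complex I), in the 5 comparisons. Red points are higher and blue points lower in every library, open points are not; the dashed line is the median of all measured genes. Against plasma cells most members lie below 0 but above the dashed line, so that they turn above 0 when the scaling moves that line to 0; in dividing T cells most lie above it.

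T cells with granzyme B, a killing enzyme of effector cells, were set against T cells with CCR7, the homing receptor of naive and central memory cells. The first had at least 2 GZMB and 0 CCR7 UMIs, and the second at least 1 CCR7 and 0 GZMB UMIs. Members summed to 1.52% to 2.84% of UMIs in the first and 1.37% to 2.51% in the second, a log2 ratio of 0.15 (-0.01 to 0.30), higher in 8 of 9 libraries. The median of all 4286 measured genes was 0.10, and with median-of-ratios scaling the summed ratio was 0.044. The stress and handling genes were lower in granzyme B than in CCR7 T cells in 9 of 9 libraries, at medians of 5242 and 5870 CPM, and the myeloid markers of library 5 summed to 1502 and 26.3 CPM; their part was not tested. Without libraries 3 and 5 the summed log2 ratio was 0.15.

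In this comparison 5 of 62 members were higher in all 9 libraries (8.06%) and 0 lower, next to 5.55% and 3.69% of all genes. They were COX7B (log2 0.28), ATP5MPL (0.26), NDUFB10 (0.20), NDUFS6 (0.17) and NDUFA11 (0.13). COX7B, a small subunit of complex IV, was at 658, 696, 492, 748, 383, 528, 517, 456 and 508 CPM in granzyme B cells of libraries 1, 2, 3, 5, 8, 9, 11, 12 and 13. In CCR7 cells of the same libraries it was at 601, 534, 459, 592, 327, 295, 334, 402 and 419 CPM. The gap ran from narrow in library 3 (492 against 459 CPM) to wide in library 9 (528 against 295 CPM), and the 2 groups overlapped across libraries. Without libraries 3 and 5, which hold 30 and 41 cells of the smaller class, 11 were higher, next to 9.61% of all genes; with median-of-ratios scaling 1 was higher and 0 lower, next to 3.83% and 4.85% of all genes, and with named antibody and ribosomal protein genes out of the totals none.

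Dividing T cells, with a UMI of MKI67 or TOP2A, held more member RNA than other T cells. Pooled over libraries, the 629 dividing cells had a median of 110 member UMIs and the other 10605 had 53. Libraries 2 and 5, with high levels, gave 243 and 83 of the dividing cells, so the pooled gap also reflects the mix of libraries. Within libraries 1, 2, 5, 9, 11, 12 and 13 the medians were 83, 178, 179, 50, 53, 119 and 57 in dividing cells. In other T cells they were 55, 74, 95, 38, 48, 55 and 36. As a share of UMIs the members were higher in 7 of 7 libraries: 2.10%, 2.72%, 2.96%, 1.75%, 1.84%, 2.39% and 2.02% in dividing cells of libraries 1, 2, 5, 9, 11, 12 and 13, and 1.89%, 2.27%, 2.74%, 1.46%, 1.61%, 1.65% and 1.60% in the others. The median log2 ratio was 0.26 (0.11 to 0.53), and 0.26 without library 5. The median of all genes was 0.11, and median-of-ratios scaling gave 0.13.

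Of 64 measured members, 35 were higher in dividing cells in all 7 libraries (54.7%) and 0 lower, next to 15% and 4.66% of all 4529 measured genes. By complex these were 17 of 29 in complex I, 2 of 3 in complex II, 2 of 6 in complex III, 8 of 12 in complex IV, 6 of 11 in complex V and 0 of 3 assembly factors. The largest was NDUFS1, the big iron-sulfur subunit of complex I, at medians of 39.3 and 18.4 CPM (log2 0.89, 0.16 to 1.24). Pooled, it was at 18.6 CPM in other T cells, under the 20 CPM minimum, and at 41.0 CPM in dividing cells. It thus counted as measured through the class where it was high, so its place as the largest is partly set by that filter. NDUFA8 (0.78), SDHA (0.73), NDUFB7 (0.69) and NDUFC2 (0.67) followed.

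SDHA was at 41.4, 55.9, 110, 58.9, 61.0, 90.4 and 80.0 CPM in dividing and 33.8, 31.6, 69.0, 28.8, 51.4, 39.2 and 39.5 CPM in other T cells of libraries 1, 2, 5, 9, 11, 12 and 13. It was higher in each library. SDHB (0.63), NDUFV3 (0.61), NDUFS8 (0.60), COX5A (0.60) and ATP5MC3 (0.60) completed the 10 largest. The most abundant members moved less: ATP5F1E had a median of 0.15 (-0.27 to 0.44), COX4I1 of 0.02 and COX7C of -0.13, below 0 in 6 of 7 libraries. Set against the member total, 17 members were higher in dividing cells in every library and 2 lower, ATP5F1D and COX4I1, next to 6.51% and 13.2% of all genes. The abundant members weigh most in this total, and the shares of all genes shift with it. Under median-of-ratios scaling 24 were higher and 0 lower, next to 9.6% and 8.54%.

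Depth moved with this result. Dividing cells had a median of 4796 UMIs and other T cells 3072, and the members' share of T-cell UMIs was higher in cells of 4000 to under 6000 UMIs than in cells of 1500 to under 2500 UMIs in 7 of 9 libraries (by -0.09 to 0.29 percentage points, median 0.12). Over these bins the share of dividing cells among T cells rose in all of the 9 libraries except library 12. It went from 4.40% to 8.40% in library 2, from 3.97% to 21.1% in library 13 and from 2.39% to 1.77% in library 12. In cells of 6000 UMIs or more it was 42.0% in library 2 and 14.2% in library 12. With every cell thinned to 1500 UMIs, the summed log2 ratio was 0.093 and 7 members were higher in every library, next to 4.88% of all genes. Among cells of 2500 to 6000 UMIs it was 0.077 in 4 libraries, with 17 higher and 1 lower, next to 15.3% and 6.4% of all genes.

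Markers of other cell types moved with it too in 4 libraries, and their part in the result was not tested. The 8 myeloid markers summed to 10721 CPM in dividing and 3559 in other T cells of library 1, and to 4667 and 1032 CPM in library 5. Library 12 had 1701 and 1781 CPM, and the other 4 libraries had at most 16 CPM in dividing cells. Epithelial markers summed to 520 CPM in dividing and 260 in other T cells of library 1, and to 656 and 4.29 CPM in library 12, and to at most 14.4 CPM in dividing cells of the other 5. In library 11 the plasma markers summed to 1837 CPM in dividing and 677 in other T cells, and the B markers to 154 and 77.1 CPM. In the other 3, libraries 2, 9 and 13, the summed members were higher in dividing cells by log2 0.26, 0.26 and 0.33.

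**Figure D5:**
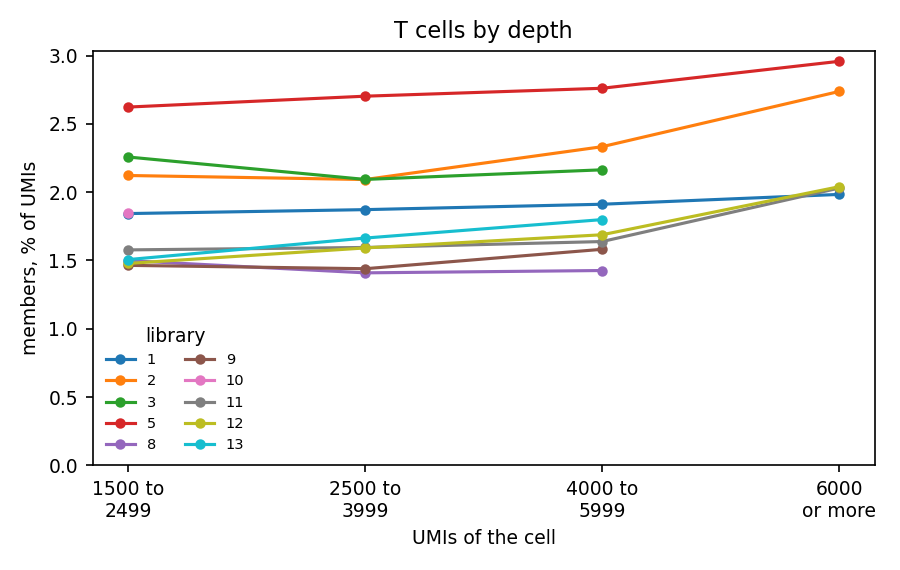
Members as a percent of T-cell UMIs, by the depth of the cell, in each library with at least 30 T cells in a bin. Each line is 1 library; in libraries 1, 2, 5, 11 and 12 the share is highest in cells of 6000 UMIs or more.

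T cells of the 2 barcode sets differed in the members' level. The share was 1.90% to 2.79% in libraries 1, 2, 3, 5 and 6 and 1.44% to 2.02% in libraries 8 to 13, where library 10 alone was above 1.68%. Of 63 members, 10 were higher in every library of the first set than in any of the second (15.9%) and 0 were lower, next to 4.32% higher and 18.6% lower of all 4285 genes. Without libraries 3, 5 and 6 these counts were 16 and 0, next to 11.4% and 26.0%, and all 10 were among the 16.

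UQCRC2, a core subunit of complex III, was at 91.8 to 154 CPM in T cells of the first set and 26.2 to 56.2 CPM in the second. COX4I1 was at 1339 to 1848 CPM against 941 to 1188, and ATP5F1B at 28.0 to 68.7 against 9.47 to 25.2. The others were NDUFB4, NDUFS4, NDUFA2, NDUFB8, ATP5MPL, ATP5MG and COX6C. Animal, disease state, kit and sequencing run may all differ between the sets and cannot be told apart.

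The rest of the pathway gives a frame for these values. Of 14 electron carriers and exchange proteins found, 10 were measured in plasma and T cells and 8 were lower in every library as a share of all UMIs, near the 77.3% of all genes, with cytochrome c (CYCS) at medians of 94.9 and 235 CPM (log2 -1.12). With the 7 plasma genes out of the totals 3 of these 10 were higher and 0 lower, next to 20.2% and 31% of all genes. CYCS was then at 0.22. Of 17 citrate cycle genes, 12 were measured there, with 7 lower and 1 higher, next to 77.3% and 5.77% of all genes. The higher one was citrate synthase (CS), at 281 CPM in plasma and 107 CPM in T cells (log2 1.01, 0.56 to 1.77), and at 207 against 75.3 CPM in B cells (1.04). Of 12 measured assembly genes, 9 were lower and 1 higher in plasma cells, TMEM70, which helps to build the ATP synthase, at 40.4 against 15.4 CPM (1.09). With the 7 genes left out, 4 citrate cycle genes were higher and 2 lower, and 3 assembly genes higher and 2 lower. Of all genes, 20.2% were higher and 31% lower under that scaling.

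In B against T cells, IDH2, the mitochondrial NADP-dependent isocitrate dehydrogenase, was at 233 against 113 CPM (log2 1.07). There 3 of 14 measured citrate cycle genes were higher and 0 lower in every library, next to 17.6% and 15.4% of all genes. Of 11 measured carriers and exchange proteins, 2 were higher and 1 lower in every library, with a median log2 ratio of 0.32. Of 15 measured assembly genes, 3 were higher and 2 lower, with a median of 0.31. The same shares of all genes apply, 17.6% and 15.4%. Among the lower ones were VDAC3, a channel of the outer membrane (-1.24), and SDHAF4, an assembly factor of complex II (-0.90). In dividing T cells 5 of 15 citrate cycle genes were higher in every library and 0 lower, CS (0.62) and IDH2 (0.63) among them. So were 4 of 11 carriers and exchange proteins and 3 of 15 assembly genes, with 1 lower assembly gene, SURF1 (-0.30). Of all genes, 15% were higher and 4.66% lower in that comparison. In granzyme B against CCR7 T cells 2 of 11 carriers and exchange proteins were higher, ETFB (0.61) and VDAC3 (0.50). In each of the citrate cycle and assembly lists 0 of 14 were, next to 5.55% of all genes. Of 12 regulators, 2 of 3 measured were lower in plasma than in T cells and 2 of 2 lower in plasma than in B cells. The shares of all genes were 77.3% and 73.8%. Of 4 measured regulators, 0 went in a single direction in B against T cells or in either comparison within T cells.

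A further 8 subunits are named only by the table of gene names, not by the file's own symbols, and are not among the 75. Of these, 7 were lower in plasma than in T cells in every library (median log2 -0.94), next to 77.3% of all genes with a median of -1.37, and 5 were higher in dividing T cells (0.42), next to 15%. With the 7 plasma genes left out, 3 of the 8 were higher in plasma cells and 0 lower, next to 20.2% and 31% of all genes. None of the 13 protein genes of mitochondrial DNA was found by name, so nuclear and mitochondrial subunits could not be compared.

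Across the 24 library sums of T, B and plasma cells, the genes whose level most resembled the members' sum were NHP2 (Pearson r 0.974), SNRPD2 (0.974), CFL1 (0.971), a feature without a symbol (ENSMMUG00000047481, 0.969) and ATP5C1 (0.966). ATP5C1 is the older symbol of ATP5F1C, the gamma subunit of complex V. The points share library, depth and the antibody RNA of plasma cells, so these are descriptions only.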

How the data were processed

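Single-cell RNA of 13 labelled samples was deposited as 1 matrix of raw UMI counts per feature and barcode, which the authors deposited with a list of the barcodes they kept. Cell Ranger 3.1.0 and Seurat 3.1 are named per the submitters' processing notes and no genome build is named there. The members and lists were chosen with earlier results of these data known. Kept barcodes had at least 1502 UMIs and libraries 3128386 to 19655788 UMIs. Counts were summed by class and library (at least 30 cells). A member was measured at a mean of 20 CPM over both classes, and single-gene log2 ratios used CPM + 5. No replicate groups could be formed, so no test was run; doublets were not called, and cells of more than 1 gate were left out. Genes named are the 3 highest per complex and up to 10 with the largest change in a single direction in every library. Alternative subunit forms, SDHA to SDHD and the 5 genes most like the sum are named too. COX5A, UQCRFS1, ATP5F1D, the genes lost in library 6 and, in plasma against T cells, NDUFV3 were chosen after their values were seen. Ratios were checked on simulated counts. Python 3.11.15, numpy 2.4.6, scipy 1.17.1, pandas 2.3.3 and matplotlib 3.10.9 were used; thinning used seed 1. Alternatives were other totals and scalings, gates, cell and level minimums, barcode sets, thinning and leaving out each library. Of the members, 72 were found in the table of gene names and 69 under the same symbol. A gene that the naming rule picks is not reported here.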

Additional observations from a re-analysis of the deposited data

Results flagged for a closer look

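Of 152 series of library values examined, 10 had a library far from the others; chance gives about 1 in 20. In plasma over T cells, SDHA had a log2 ratio of 1.02 in library 2 and -0.33 to 0.22 in the other libraries. In B over T cells, SDHD was at -2.18 in library 12 (others 0.14 to 0.64), ATP5F1E at -1.04 in library 2 (-0.56 to -0.31) and COX4I1 at -0.41 in library 2 (0.06 to 0.26). Both libraries hold few B cells.

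In granzyme B over CCR7 T cells, library 3 was at -0.13 for ATP5MG (others 0.25 to 0.62) and at -2.36 for ATP5F1D (-0.36 to 0.37), of which its 30 granzyme B cells held 0 UMIs. In dividing over other T cells, library 12 was at 0.73 for COX7C (-0.56 to -0.07), 1.49 for NDUFS8 (0.35 to 0.83) and 0.41 for COX4I1 (-0.07 to 0.10), and library 5 at -0.82 for ATP5F1D (-0.14 to 0.20).

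Barcodes that no comparison used also held members: they made up 1.35% of the UMIs of the barcodes that were not kept, and 2.52% in the 39 kept cells of library 4.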

How the results depend on the processing

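Over all settings tried, 280 of the values for whole comparisons counted as the same, 70 as moved and 4 as reversed. For single members these were 3295, 270 and 49. A ratio was the same if it shifted by less than the standard deviation over libraries, and a count if it changed by a small fold. Reversed was kept for results that went in a single direction in every library. Other changes of sign counted as the same or moved. The B against T sum, 0.12 in the main setting and -0.05 with median-of-ratios scaling, counted as the same. The settings on the 7 plasma genes, marker sums without gate genes, plasma cells that also pass the B gate, cells of 2500 to 6000 UMIs and libraries 3, 5 and 6 were chosen after seeing the data. No paired analysis was possible because no map ties cells to the labelled groups, whose numbers would form the pairs; the comparisons of classes are themselves made within libraries. For the same reason the planned edgeR and DESeq2 comparisons of groups were not run. A setting gave no value where no library held enough cells of both classes. The cause of a move was not tested unless the setting itself removes genes, cells or libraries. Few libraries, small classes and genes near 20 CPM limit the depth. Going in a single direction in every library is easier where a setting leaves fewer libraries, for members and for all genes. Most counts below are given without the share of all genes. A rise under such a setting is therefore not read as specific to the members.

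For plasma against T cells the summed log2 ratio was 0.25 with median-of-ratios scaling, 0.22 without the 7 plasma genes, -0.55 without named immunoglobulin genes, -0.83 also without ribosomal protein genes, -0.81 with cells of more than 1 gate, -0.85 in the first barcode set and -1.16 to -1.04 leaving out each library. Higher members (1) were 36, 31 and 2 under the first 3 of these settings, 0 when thinned, with cells of more than 1 gate, stricter gates, 100 CPM or plasma cells allowed the B gate, 2 in the first set, 3 in cells of 2500 to 6000 UMIs (1 library) and 1 leaving out each library. Lower members (47) were 5, 3 and 24 under the same 3 scalings and 46 to 50 leaving out each library.

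For B against T cells the sum was -0.48 with cells of more than 1 gate and 0.10 to 0.14 leaving out each library. Higher members (5) were 3 thinned, 1 with all barcodes, 0 with cells of more than 1 gate, 44 with 100 cells, 9 in the first set, 18 in the second, 1 at 100 CPM, and 5 to 18 leaving out each library (18 without library 2, 9 without library 12). The share of all genes that were higher rose as well, from 17.6% in the main setting to 44.1% with 100 cells. For plasma against B cells the sum was 0.39 with median-of-ratios scaling, 0.34 without the 7 genes, -0.39 without named immunoglobulin genes, -0.042 with cells of more than 1 gate, -0.26 in the first set and -1.31 to -0.66 leaving out each library. Higher members (0) were 34, 30 and 2 under the first 3 settings and 27 in the first set, which gave 1 library. Lower members (31) were 2, 3 and 16 there, 1 with cells of more than 1 gate, 61 with 100 cells, 51 in the second set, 20 at 100 CPM and 31 to 51 leaving out each library (51 without library 2).

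For granzyme B against CCR7 T cells the sum was 0.044 with median-of-ratios scaling and 0.15 to 0.17 leaving out each library. Higher members (5) were 0 without immunoglobulin and ribosomal protein genes, 1 with median-of-ratios scaling, 2 with cells of more than 1 gate, 21 with stricter gates or 100 cells, 17 in the first set or in cells of 2500 to 6000 UMIs, 16 in the second set, 11 without libraries 3, 5 and 6, and 5 to 11 leaving out each library (9 without library 1 or 3, 11 without library 12). Lower members (0) were 1 thinned and in the first set, and 0 to 1 leaving out each library (1 without library 11). For dividing against other T cells the sum was 0.093 thinned, 0.50 with cells of more than 1 gate, 0.077 in cells of 2500 to 6000 UMIs and 0.22 to 0.26 leaving out each library. Higher members (35) were 7 thinned, 58 with stricter gates, 59 with 100 cells (each in 1 library, where every member is counted one way or the other), 17 in cells of 2500 to 6000 UMIs and 35 to 39 leaving out each library; lower members (0) were 6, 5, 2 in the first set, 1 in cells of 2500 to 6000 UMIs and 0 to 1 leaving out each library (1 without library 12).

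The changes of sign listed here are only those of members that went in a single direction in every library in the main setting. In plasma over T with the totals without named immunoglobulin genes, COX7A2 (0.10) turned sign. In plasma over T with median-of-ratios scaling, SDHB (0.70), NDUFA4 (0.43), UQCRQ (0.78), COX7A2 (0.86), COX5A (0.41), COX7B (0.049), NDUFA1 (0.73), UQCRB (0.88), COX8A (0.13), ATP5MG (0.33), COX7A2L (0.61), ATP5F1D (0.64), NDUFA11 (0.72) and COX6B1 (0.67) turned sign. In plasma over T with the totals without the 7 plasma genes, SDHB (0.67), NDUFA4 (0.39), UQCRQ (0.68), COX7A2 (1.09), COX5A (0.42), COX7B (0.10), NDUFA1 (0.72), UQCRB (0.72), ATP5MG (0.35), COX7A2L (0.56), ATP5F1D (0.52), NDUFA11 (0.81) and COX6B1 (0.68) turned sign. In B over T keeping cells of more than 1 gate, NDUFAF4 (-0.44) and NDUFA10 (-0.31) turned sign. In plasma over B with the totals without named immunoglobulin genes, ATP5F1D (0.038) turned sign. In plasma over B with median-of-ratios scaling, SDHB (0.37), NDUFA4 (0.27), NDUFB2 (0.036), COX8A (0.28), ATP5MG (0.53), COX7A2L (0.36), ATP5F1D (0.81) and UQCR (0.29) turned sign. In plasma over B keeping cells of more than 1 gate, COX8A (0.038) and ATP5F1D (0.013) turned sign. In plasma over B with the totals without the 7 plasma genes, SDHB (0.20), NDUFA4 (0.26), COX8A (0.20), ATP5MG (0.50), COX7A2L (0.27), ATP5F1D (0.77) and UQCR (0.24) turned sign. In dividing T over other T in cells thinned to 1500 UMIs, NDUFB2 (-0.059) turned sign.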
